A study of Homo sapiens with 27 samples.

Results

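The 36 genes described here code for the enzymes and transporters of glycolysis and for transcripts that cells raise when oxygen is low. They were picked by name from a fixed list of glycolysis and hypoxia response genes, and each of the 36 was found under 1 Ensembl identifier among the 57165 genes measured. Their RNA was counted in SUM159 and MDA-MB-231, established human triple negative breast cancer lines of mesenchymal character, after silencing of ZEB1, a transcription factor that holds breast cancer cells in a mesenchymal state. The silencing tool was dCas9-KRAB, a Cas9 that no longer cuts DNA, fused to a repressor domain, delivered by a lentiviral vector with gRNAs for the ZEB1 promoter and selected with puromycin.

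Each line was sequenced untransduced (wild type), with the dCas9-KRAB vector lacking any guide (No gRNA), and with that vector plus ZEB1 guides, at 3 libraries per group and 27 in all. SUM159 had a gRNA 4 group and a group with the 4 gRNAs together (All gRNA), all in run 1, and a further wild type group in run 2. All MDA-MB-231 libraries were placed in run 2. Only the titles of the further wild type group name a run. For the other libraries the run follows the prefix B1 or B2 of the column headings. The titles and headings do not say what a run covers. The labels of the 6 MDA-MB-231 libraries with gRNAs contradict each other: by their titles, set 1 received gRNA 4 and set 2 the pool, whereas the column headings of the data give the reverse. They were therefore kept as set 1 and set 2, and neither is called by its gRNAs. The study describes the replicates as individual clones, and whether clones with the same number shared a culture is not stated, so the p-values measure the spread between these libraries. SUM159 was grown in F12 medium with insulin and hydrocortisone, and MDA-MB-231 in high glucose medium with pyruvate. Line and medium, and for the transduced groups also the run, cannot be told apart.

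Glycolysis splits glucose into pyruvate, which lactate dehydrogenase turns into lactate when it does not enter the mitochondria. Tumor cells often run this route at a high rate even with oxygen present. When oxygen falls, prolyl hydroxylases of the EGLN family stop marking HIF-1α and HIF-2α for destruction by VHL, and the stabilized factors pair with ARNT and switch on glucose transporters, most glycolytic enzymes, the acid-handling carbonic anhydrase CA9, the angiogenic factor VEGFA and the autophagy genes BNIP3 and BNIP3L. HIF is controlled mainly through its protein, which was not measured, and neither were oxygen, glucose or cell density.

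The libraries held between 15461200 and 21473757 estimated counts. Levels below are in CPM, a gene's counts divided by its library's total and brought to a common total per library, with totals adjusted by TMM over all libraries. They follow a gene across libraries and do not rank different genes, since they are not divided by gene length. In a bulk RNA measurement, fewer cells that express a gene and less RNA per cell cannot be told apart. "Rose", "fell", "higher" and "lower" as calls mean that limma's moderated test against a log2 fold change of 0 gave a Benjamini-Hochberg adjusted p under 0.05 over all genes tested. The stricter TREAT test asks in the same way for a log2 fold change beyond 1.

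ZEB1 was at 70.8, 77.3 and 73.3 CPM in SUM159 No gRNA. It was at 4.56, 3.25 and 2.57 CPM with gRNA 4 and at 0.812, 0.376 and 1.03 CPM with All gRNA. In MDA-MB-231 No gRNA it was at 105, 122 and 104 CPM, against 4.75, 5.51 and 5.74 CPM in set 1 and 4.94, 3.71 and 5.43 CPM in set 2. ZEB1 was thus low in every library labelled with a ZEB1 gRNA, and the sets did not differ in it by a called amount (log2 difference -0.18 ± 0.228 SE, adjusted p = 0.528, limma). Wild type cells had 84.0, 75.9 and 79.1 CPM (SUM159, run 1) and 74.1, 65.6 and 70.5 CPM (MDA-MB-231). Its antisense neighbour overlaps it, and without a stated strand setting their reads cannot be separated.

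Of the mesenchymal markers, VIM was at over 1000 CPM in every group of both lines. CDH2 was at group means of 66.6 to 135 CPM in SUM159 but of 0.199 to 1.24 CPM in MDA-MB-231, so it did not mark that line. FN1 was at group means of 1393 to 2279.6 CPM in SUM159 and of 229 (wild type) to 1389 CPM (No gRNA) in MDA-MB-231. The epithelial EPCAM was at 12.3 CPM in MDA-MB-231 wild type, 290.3 in set 1 and 381 in set 2 (group means). Both lines had the leukocyte gene PTPRC, the endothelial gene CDH5 and the hemoglobin gene HBB at group means below 0.3 CPM. The luminal receptor genes ESR1 and PGR were also near 0. ESR1 did not exceed a group mean of 0.121 CPM. The other receptor gene looked at, ERBB2, was not near 0. Its group means ran from 42.1 CPM (SUM159 gRNA 4) to 63.1 CPM (MDA-MB-231 set 2). Among leukocyte and endothelial markers, CD14 reached a group mean of 4.70 CPM in MDA-MB-231 No gRNA and PECAM1 6.57 CPM in SUM159 All gRNA, and both differed between groups. Their part in the results was not tested.

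Some libraries stood apart before any gRNA was considered. The wild type SUM159 cells of run 2 differed from those of run 1 in 62.1% of genes by the moderated test and in 6.65% by TREAT. Of the 35 of the 36 genes tested there, 26 were called, 10 higher and 16 lower in run 2, and 3 passed TREAT: ENO1 (log2 fold change -1.46), PFKP (-1.33) and LDHA (-1.27). The runs thus differed in most genes, and the shares of the members called in either direction were not far from those of all genes. The glycolytic enzymes went mostly 1 way: of 16, 12 were lower and 1 higher in run 2. Their median log2 fold change was -0.72, against 0.01 over all genes. The shares over all genes were taken in either direction only. The proliferation gene MKI67 was lower in run 2 (164, 141 and 145 CPM against 453, 422 and 398), as were TOP2A (-1.36 on the log2 scale) and VIM (-0.87). The mesenchymal FN1 and CDH2 were higher in run 2 (group means 1903 against 1573 CPM and 135 against 96.0 CPM), and mitochondrial genes took 1.84% to 1.87% of counts in run 2 and 2.99% to 3.43% in run 1. Their part in the difference was not tested. In MDA-MB-231, the No gRNA control itself was far from wild type, which bears on each comparison that uses it and is described in its own paragraph.

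Promoter sequence is shown for 4 genes picked as examples. CA9, CA12 and ALDOC were highest in No gRNA among the MDA-MB-231 groups. LDHA lay on opposite sides of No gRNA in the MDA-MB-231 sets. Other genes with large differences had windows without the sequence marked here, and they are named below. The windows are the 250 bases before the RefSeq start of each gene (GRCh38.p14), written 5′ to 3′ on the strand of the gene. Capitals mark each ACGTG or GCGTG on either strand, the core to which HIF is known to bind. CA9 lies at chr9:35673678-35673927 (plus strand), CA12 at chr15:63381847-63382096 (minus), ALDOC at chr17:28576896-28577145 (minus) and LDHA at chr11:18394313-18394562 (plus).

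CA9: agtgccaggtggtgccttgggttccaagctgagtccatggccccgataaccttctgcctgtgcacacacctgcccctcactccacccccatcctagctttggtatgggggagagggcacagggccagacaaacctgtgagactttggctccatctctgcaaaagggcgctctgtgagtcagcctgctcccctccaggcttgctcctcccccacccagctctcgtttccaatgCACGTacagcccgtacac

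CA12: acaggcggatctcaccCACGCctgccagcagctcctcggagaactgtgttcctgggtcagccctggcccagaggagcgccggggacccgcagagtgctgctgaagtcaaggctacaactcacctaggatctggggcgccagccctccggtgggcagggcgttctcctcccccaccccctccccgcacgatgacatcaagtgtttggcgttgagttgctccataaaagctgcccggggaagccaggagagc

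ALDOC: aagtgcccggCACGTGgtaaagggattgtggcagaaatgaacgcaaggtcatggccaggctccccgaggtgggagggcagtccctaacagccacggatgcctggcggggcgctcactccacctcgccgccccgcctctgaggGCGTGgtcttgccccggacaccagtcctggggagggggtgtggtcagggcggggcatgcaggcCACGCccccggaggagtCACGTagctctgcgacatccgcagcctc

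LDHA: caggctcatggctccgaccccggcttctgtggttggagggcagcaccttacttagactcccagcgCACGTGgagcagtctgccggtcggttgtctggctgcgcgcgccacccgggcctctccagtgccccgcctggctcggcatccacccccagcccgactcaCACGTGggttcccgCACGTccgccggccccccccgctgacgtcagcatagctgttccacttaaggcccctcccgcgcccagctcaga

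The core was found 1 time in the CA9 window, 1 time in CA12, 5 times in ALDOC and 5 times in LDHA. CACGTG, which holds the core on both strands, counts as 2 and is also the letters of an E-box. Promoter windows were read for 32 of the 36 genes, and 24 of these (75.0%) held at least 1 core, against 43.2% of all 35116 windows of this length. The windows of PFKM, PFKP, TPI1, PGAM1, PKM, SLC2A1, EGLN3 and MXI1 held no core. These are matches of letters only. VEGFA, NDRG1, BNIP3L and SLC2A3 had no entry.

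Against No gRNA, the called genes of SUM159 nearly all rose, by less than 1 on the log2 scale, while those of MDA-MB-231 mostly fell in set 1 and mostly rose in set 2. In SUM159 All gRNA, 11 of the 36 genes rose (5.93% of all 15147 genes tested did) and 0 fell (4.89%). In SUM159 gRNA 4, 13 rose (6.11%) and 1 fell (4.91%). Without No gRNA replicate 2 the latter comparison had 9 calls, all rises (7.45% of all genes in either direction). TREAT called 0 of the 36 in each, and its share over all genes was 0.396% (All gRNA) and 0.390% (gRNA 4). In MDA-MB-231 set 1, 3 rose (20.4% of 15721) and 16 fell (17.3%), and 2 passed TREAT (1.47%). In MDA-MB-231 set 2, 18 rose (27.3%) and 9 fell (25.1%), and 4 passed TREAT (4.14%). All TREAT calls in the sets were falls. All 36 genes passed the filter on low counts in both lines, and each reached a mean of 10 counts in every group of these fits but CA9, which did not in MDA-MB-231 wild type. The wild type of SUM159 run 2 is not in these fits, and CA9 was low there too. The median log2 fold change over the 36 was 0.10 (All gRNA), 0.18 (gRNA 4), -0.23 (set 1) and 0.18 (set 2). The median of all genes was within 0.01 of 0 in each. Comparisons within a line share their No gRNA libraries.

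The 16 glycolytic enzymes together took 15185 ± 24.5 CPM in MDA-MB-231 wild type (SD, n = 3) and 12678 ± 175 in No gRNA. They took 9074 ± 200.4 in set 1 and 15956 ± 214 in set 2. The 4 groups did not overlap: set 1 lay below No gRNA, and set 2 lay above wild type. In SUM159 the sums were 17329 ± 83.3 in wild type of run 1, 12785 ± 115 in No gRNA, 13487 ± 438 in All gRNA and 14317 ± 191 in gRNA 4, so both targeted groups were above No gRNA and below the wild type of their run. The wild type of run 2, at 10262 ± 40.2, was the lowest SUM159 group.

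**Figure D1:**
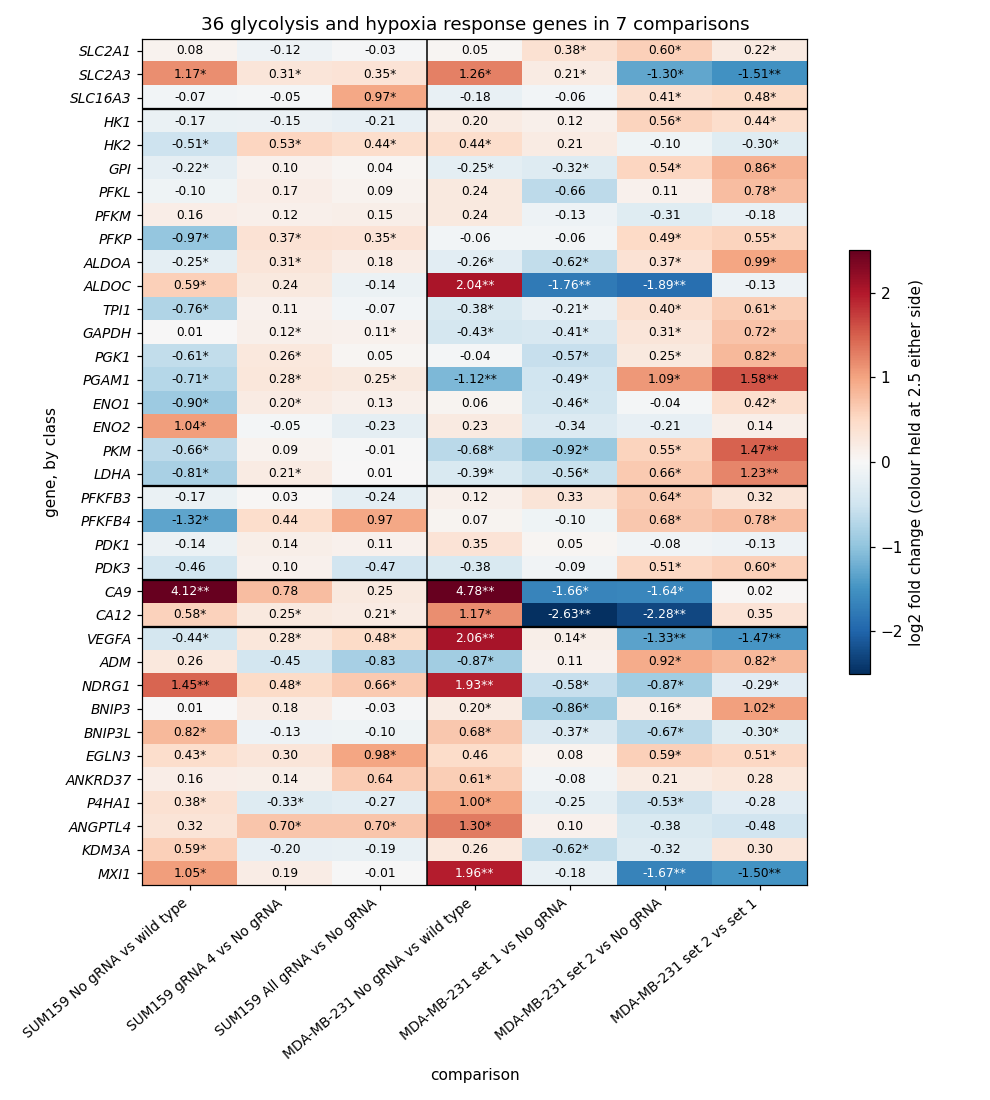
Log2 fold changes of the 36 genes (rows, in the classes used here, parted by lines) in 7 comparisons (columns), in red where the group named first was higher and in blue where it was lower. A single asterisk marks limma's moderated test and a double asterisk TREAT, each at an adjusted p under 0.05, and the MDA-MB-231 columns hold most of the strong colours, with CA9 at 4.12 and 4.78 in the No gRNA against wild type columns.

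Glucose entry and lactate exit rest on the transporters SLC2A1 and SLC2A3 (GLUT1 and GLUT3) and on SLC16A3 (MCT4), which carries lactate out of the cell. SLC2A3 was at 91.7, 75.7 and 78.8 CPM in SUM159 No gRNA, at 96.8, 101 and 109 with gRNA 4 and at 100.3, 110.1 and 103 with All gRNA. Both targeted groups were above all No gRNA libraries, by 0.31 ± 0.0793 (SE, adjusted p = 0.0255) and 0.35 ± 0.0786 (adjusted p = 0.0146, limma) on the log2 scale. Both calls were lost without No gRNA replicate 2 (adjusted p = 0.103 and 0.0651) or replicate 3 (0.0920 and 0.0600), that with gRNA 4 also without its replicate 2 or 3 (0.0610 and 0.0970), and that with All gRNA without its replicate 2 (0.0570). In MDA-MB-231 SLC2A3 stood at 58.7, 54.1 and 63.9 CPM in No gRNA, at 65.4, 70.0 and 67.2 in set 1 and at 22.1, 22.3 and 26.2 in set 2. Set 2 lay far below the other transduced cells and overlapped wild type (22.9, 22.0 and 25.8 CPM), a fall of 1.30 ± 0.0904 against No gRNA (adjusted p = 3.39e-07), while set 1 rose by 0.21 ± 0.0730 (adjusted p = 0.0454).

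SLC2A1, the widespread basal glucose transporter, did not pass the test in either SUM159 comparison (log2 fold changes -0.03 and -0.12). It rose in MDA-MB-231 by 0.38 ± 0.0341 in set 1 and by 0.60 ± 0.0331 in set 2. SLC16A3 rose with All gRNA but not with gRNA 4. It was at 34.7, 38.3 and 43.7 CPM in SUM159 No gRNA, at 34.5, 39.4 and 39.8 with gRNA 4 and at 90.3, 63.3 and 76.6 with All gRNA. The All gRNA libraries were above all of the others, and the log2 fold change was 0.97 ± 0.167 against No gRNA (adjusted p = 0.00304, limma). All gRNA exceeded gRNA 4 by 1.01 ± 0.168 (adjusted p = 0.0173). The wild type SUM159 cells of run 2 had 77.5, 62.6 and 67.1 CPM and those of run 1 37.2, 34.1 and 52.9, so untreated cells of the line also differed in it. In MDA-MB-231 the log2 fold change of SLC16A3 was -0.06 in set 1 (adjusted p = 0.739) and 0.41 in set 2, where it rose (adjusted p = 0.0151) with libraries that overlapped those of No gRNA.

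Among the 16 enzymes, 10 fell (17.3% of all genes) and 0 rose (20.4%) in MDA-MB-231 set 1, and 10 rose (27.3%) and 1 fell (25.1%) in set 2. In the same comparisons the proliferation gene TOP2A fell by 0.65 in set 1 and rose by 0.25 in set 2, MKI67 did not pass in set 1 (-0.26) and rose by 0.89 in set 2, and VIM fell by 0.85 in set 1 and rose by 0.10 in set 2. The mesenchymal FN1 fell in both sets, by 1.00 and 1.89. CDH2 did not pass in set 1 (-0.75) and rose by 2.09 in set 2, from a mean of 0.290 CPM in No gRNA to 1.24 CPM. The epithelial EPCAM rose by 4.54 and 4.95, and CDH1 by 5.36 and 2.72. Mitochondrial genes took 1.97% to 2.43% of counts in No gRNA, 1.48% to 1.69% in set 1 and 1.40% to 1.56% in set 2. Their part in the changes was not tested. PKM, pyruvate kinase of the last energy-yielding step, was at 1515, 1546 and 1527 CPM in No gRNA, at 797, 826 and 799 in set 1 and at 2207, 2195 and 2201 in set 2. The groups did not overlap, and PKM fell by 0.92 ± 0.0185 in set 1 (adjusted p = 3.99e-11) and rose by 0.55 ± 0.0143 in set 2 (adjusted p = 1.13e-10, limma). Wild type cells had 2340.4, 2354 and 2369 CPM, above set 2.

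LDHA, which makes lactate from pyruvate, was at 1784, 1825 and 1872 CPM in No gRNA. It was at 1271, 1244 and 1179 CPM in set 1 and at 2863, 2819 and 2865 CPM in set 2. The sets lay on opposite sides of No gRNA, 0.56 ± 0.0261 lower (adjusted p = 3.09e-08) and 0.66 ± 0.0210 higher (adjusted p = 5.27e-10) on the log2 scale. PGAM1, phosphoglycerate mutase, stood at 301, 285 and 303 CPM in No gRNA, at 212, 209 and 209 in set 1 and at 632, 605 and 623 in set 2. It rose by 1.09 ± 0.0285 in set 2 (adjusted p = 1.16e-10, but 0.0920 by TREAT) and fell by 0.49 ± 0.0346 in set 1, and wild type cells, at 626, 609 and 629 CPM, overlapped set 2.

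ALDOA, the aldolase of most tissues, was at 739, 749.8 and 759 CPM in No gRNA, at 499, 489 and 472 in set 1 and at 972, 937 and 956 in set 2. These groups again did not overlap (log2 fold changes -0.62 ± 0.0287 and 0.37 ± 0.0246). The aldolase of brain, ALDOC, did something else. It was at 13.9, 15.0 and 13.0 CPM in No gRNA, at 3.71, 4.67 and 3.90 in set 1 and at 3.70, 4.05 and 3.31 in set 2. Both sets were low, and both passed TREAT, at -1.76 ± 0.124 (adjusted p = 0.00360) and -1.89 ± 0.127 (adjusted p = 6.98e-04), which is 3.39-fold and 3.70-fold lower. Wild type libraries had 3.25, 3.26 and 3.20 CPM, so among the MDA-MB-231 groups the No gRNA libraries stood apart.

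Of the other enzymes, PGK1, ENO1, GAPDH, GPI and TPI1 fell in set 1 by between 0.21 and 0.57 on the log2 scale. In set 2, PGK1, GAPDH, TPI1, PFKP, GPI and HK1 rose by between 0.25 and 0.56, and ENO1 did not pass (log2 fold change -0.04, adjusted p = 0.270). The muscle and liver phosphofructokinases PFKM and PFKL, the neuronal enolase ENO2 and HK2 did not pass in either set. GAPDH, PGK1, PGAM1, LDHA, ENO1, TPI1, ALDOA and PKM have close copies elsewhere in the genome, and how 50 base reads were divided among them is uncertain.

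In SUM159, 4 of the 16 enzymes rose and 0 fell with All gRNA (5.93% and 4.89% of all genes), and 8 rose and 0 fell with gRNA 4 (6.11% and 4.91%). MKI67 rose with All gRNA by 0.34 (adjusted p = 0.0365) and did not pass with gRNA 4 (0.24), and TOP2A and VIM passed in neither. CDH2 fell by 0.58 and 0.52 and FN1 by 0.71 and 0.51 with All gRNA and gRNA 4. The epithelial EPCAM rose by 4.96 and 5.29 and passed TREAT in both comparisons. It was at 0 CPM in No gRNA and at group means of 0.869 and 1.12 CPM in the targeted groups, so these fits rest on few counts. The part of these markers was not tested. HK2, the hexokinase most tied to tumor glycolysis, was at 112, 112 and 128 CPM in No gRNA, at 174, 171 and 168 with gRNA 4 and at 166, 147 and 165 with All gRNA. It was higher in all 6 targeted libraries, by 0.53 ± 0.0730 (adjusted p = 5.59e-04) and 0.44 ± 0.0731 (adjusted p = 0.00247). Wild type of run 1, at 171, 154 and 175 CPM, overlapped both. PFKP, the platelet-type phosphofructokinase, was at 156, 139 and 130.4 CPM in No gRNA, at 184, 176 and 194 with gRNA 4 and at 174, 180.4 and 185 with All gRNA. It rose by 0.37 ± 0.0678 and 0.35 ± 0.0676, and remained below wild type of run 1 (268, 284 and 275 CPM). ALDOA rose with gRNA 4, from 754, 807 and 809.8 CPM to 897, 1053 and 1012 CPM (log2 fold change 0.31 ± 0.0563), and at 891, 904 and 892 CPM with All gRNA did not pass (adjusted p = 0.0657). Against wild type of run 1, ALDOA with gRNA 4 did not pass (0.06, adjusted p = 0.386, limma). PGAM1 and GAPDH rose in both comparisons by between 0.11 and 0.28, and ENO1, LDHA and PGK1 with gRNA 4 by between 0.20 and 0.26.

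**Figure D2:**
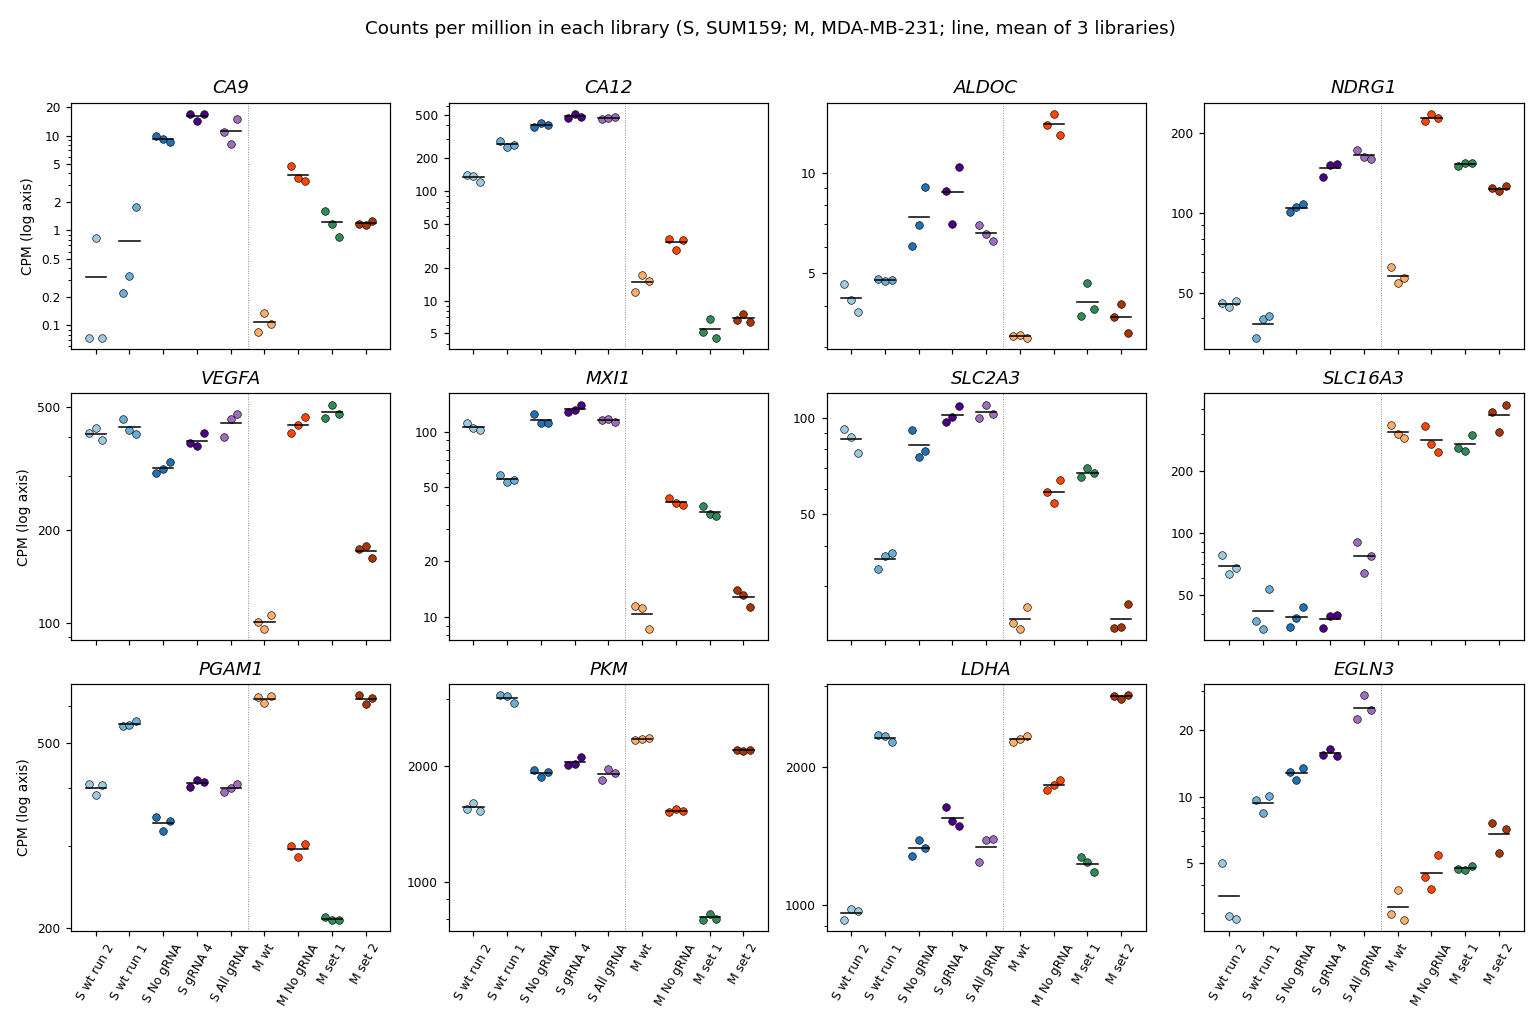
CPM (log axis) of 12 of the genes in each of the 27 libraries (points) with the mean of each group of 3 (line), S for SUM159, M for MDA-MB-231 and wt for wild type. For ALDOC, MXI1, SLC2A3, VEGFA and PGAM1 the M set 2 points lie nearer to M wt than to M No gRNA.

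The switches of flux were PFKFB3 and PFKFB4, which make the activator of phosphofructokinase, and PDK1 and PDK3, kinases that keep pyruvate out of the mitochondria. Of these 4, 0 rose or fell with All gRNA (5.93% and 4.89% of all genes), with gRNA 4 (6.11% and 4.91%) or in set 1 (20.4% and 17.3%), and 3 rose and 0 fell in set 2 (27.3% and 25.1%). There PFKFB3 rose by 0.64 ± 0.205, PFKFB4 by 0.68 ± 0.157 and PDK3 by 0.51 ± 0.195, and PDK1 did not pass (-0.08, adjusted p = 0.702). The summed level of the 4 was 92.8 ± 10.4 CPM in MDA-MB-231 wild type and 106 ± 8.91 CPM in No gRNA (SD, n = 3). It was 125 ± 29.1 CPM for set 1 (91.9, 140.0 and 144) and 149.8 ± 14.3 CPM for set 2 (163, 135 and 152), and libraries of the sets overlapped.

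The carbonic anhydrases CA9 and CA12, cell surface enzymes that help to dispose of acid, fell in both MDA-MB-231 sets. CA12 was at 36.8, 29.2 and 36.2 CPM in No gRNA, at 5.21, 6.73 and 4.55 in set 1 and at 6.63, 7.59 and 6.37 in set 2. Every targeted library was below every No gRNA library and also below wild type (11.9, 17.0 and 15.0 CPM). TREAT called both falls, of 2.63 ± 0.188 (adjusted p = 2.48e-04) and 2.28 ± 0.174 (adjusted p = 4.65e-04) on the log2 scale, or 6.17-fold and 4.84-fold. In SUM159, where CA12 was at 390.2, 424 and 407 CPM in No gRNA, it rose to 468, 512 and 480.1 with gRNA 4 (log2 fold change 0.25, adjusted p = 0.0115) and to 460.0, 471 and 481 with All gRNA (0.21, adjusted p = 0.0286).

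CA9, long used as a marker of hypoxic tumor regions, was at 4.73, 3.57 and 3.32 CPM in MDA-MB-231 No gRNA. It was at 1.62, 1.18 and 0.852 CPM in set 1 and at 1.16, 1.14 and 1.26 CPM in set 2. Both sets were lower, by 1.66 ± 0.240 (adjusted p = 2.40e-04) and 1.64 ± 0.237 (adjusted p = 1.31e-04), but did not pass TREAT (adjusted p = 0.405 and 0.175). In SUM159 the values were 9.95, 9.30 and 8.49 CPM in No gRNA, 17.0, 14.2 and 17.0 with gRNA 4 and 11.0, 8.07 and 14.8 with All gRNA. The gRNA 4 libraries were all above No gRNA, yet the difference did not pass (0.78 ± 0.250, adjusted p = 0.0701), and those of All gRNA overlapped No gRNA.

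Of the 11 hypoxia response genes outside glycolysis, 4 rose and 0 fell with All gRNA (5.93% and 4.89% of all genes) and 3 rose and 1 fell with gRNA 4 (6.11% and 4.91%) in SUM159. In MDA-MB-231, 1 rose and 4 fell in set 1 (20.4% and 17.3%), and 3 rose and 5 fell in set 2 (27.3% and 25.1%). NDRG1, a stress-response gene of hypoxic and differentiating cells, was at 101, 105 and 108 CPM in SUM159 No gRNA, at 137, 152 and 153 with gRNA 4 and at 173, 162 and 160.1 with All gRNA. It rose by 0.48 ± 0.0683 (adjusted p = 7.29e-04) and 0.66 ± 0.0671 (adjusted p = 6.57e-05). In MDA-MB-231 it took the other direction, from 222, 237 and 228 CPM in No gRNA to 149.9, 154 and 154 in set 1 and 124, 121 and 126 in set 2 (log2 fold changes -0.58 ± 0.0431 and -0.87 ± 0.0448).

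VEGFA, the main angiogenic factor, was at 307, 316 and 332 CPM in SUM159 No gRNA, at 382, 375 and 412 with gRNA 4 and at 400.4, 457 and 474 with All gRNA. It rose in both, by 0.28 ± 0.0710 and 0.48 ± 0.0698, to values that overlapped wild type of run 1 (458, 423 and 410.1 CPM). The gRNA 4 call was lost without gRNA 4 replicate 3 (adjusted p = 0.0950) or No gRNA replicate 1 or 2 (0.0883 and 0.0755). In MDA-MB-231 it was at 413, 438 and 463 CPM in No gRNA, at 461, 509.5 and 474 in set 1 and at 174, 178 and 162 in set 2. Set 2 was lower by 1.33 ± 0.0599 and passed TREAT (adjusted p = 0.00424), and set 1 was slightly higher (0.14 ± 0.0484, adjusted p = 0.0379) with libraries that overlapped No gRNA. MXI1, an antagonist of MYC, showed the same split. It was at 43.8, 41.3 and 40.3 CPM in No gRNA and 39.7, 35.8 and 35.3 in set 1, which did not pass (adjusted p = 0.138), and fell to 14.1, 13.2 and 11.4 CPM in set 2 (-1.67 ± 0.110, TREAT adjusted p = 0.00190).

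BNIP3, a mitophagy receptor, went with the enzymes and not with VEGFA. It was at 119, 117 and 119 CPM in MDA-MB-231 No gRNA, at 67.4, 68.0 and 59.4 in set 1 (-0.86 ± 0.0609) and at 135, 121 and 135 in set 2 (0.16 ± 0.0526, adjusted p = 0.0246). Its relative BNIP3L fell in both sets, by 0.37 and 0.67 on the log2 scale. ADM, the vasodilator adrenomedullin, was at 95.8, 87.9 and 90.1 CPM in No gRNA, at 102, 94.7 and 97.2 in set 1 and at 175, 168 and 167 in set 2, where it rose by 0.92 ± 0.0479 (adjusted p = 3.25e-08) to values that overlapped wild type (168, 156 and 159 CPM). KDM3A, a histone demethylase, went from 64.0, 87.7 and 80.5 CPM to 46.0, 54.9 and 48.4 CPM in set 1 (-0.62 ± 0.147, adjusted p = 0.00588) and did not pass in set 2 (adjusted p = 0.0744).

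EGLN3, a prolyl hydroxylase that HIF itself induces, was at 12.9, 11.9 and 13.5 CPM in SUM159 No gRNA, at 15.5, 16.5 and 15.3 with gRNA 4 and at 22.4, 28.7 and 24.7 with All gRNA. The 3 groups did not overlap. It rose by 0.98 ± 0.112 with All gRNA (adjusted p = 1.55e-04), while gRNA 4 did not pass (0.30, adjusted p = 0.146), and All gRNA exceeded gRNA 4 by 0.68 ± 0.107 (adjusted p = 0.0138). ANGPTL4, a secreted inhibitor of lipoprotein lipase, went from 9.39, 9.51 and 12.1 CPM to 15.6, 16.8 and 18.3 with gRNA 4 and 13.6, 18.5 and 18.3 with All gRNA, a rise of 0.70 in each (adjusted p = 0.0115 and 0.0125). Without No gRNA replicate 1 or 2 neither passed (adjusted p between 0.0511 and 0.0552). The collagen prolyl hydroxylase subunit P4HA1 was the 1 gene that fell with gRNA 4, from 83.3, 92.8 and 84.5 CPM to 70.6, 72.0 and 65.1 CPM (-0.33 ± 0.0876, adjusted p = 0.0300), a call lost without any 1 of these 6 libraries (adjusted p between 0.0525 and 0.109). With All gRNA it was at 77.9, 67.6 and 70.2 CPM and did not pass (adjusted p = 0.0667). In MDA-MB-231, EGLN3 rose and P4HA1 fell in set 2, by 0.59 and 0.53, and ANKRD37, which codes for an ankyrin repeat protein, passed in 0 of the 4 comparisons.

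SLC16A3 and EGLN3 were the only 2 of the 36 called between All gRNA and gRNA 4 in SUM159, where 0.944% of all genes were called, and both were higher with All gRNA. Leaving out gRNA 4 replicate 1 or replicate 3 left 0 of these calls (adjusted p of EGLN3 0.0577 and 0.0571, of SLC16A3 0.0840 and 0.0564), with log2 differences of 0.66 or more. SLC16A3 alone was lost without All gRNA replicate 1 or 3 or gRNA 4 replicate 2. The sets of MDA-MB-231 differed in 25 of the 36, in a comparison in which many more of all genes were called, as given next.

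Between set 2 and set 1, 19 of the genes were higher in set 2 (25.2% of all genes were) and 6 lower (26.3%). TREAT called 6 (3.07%). Higher were PGAM1 (log2 difference 1.58 ± 0.0316, or 2.99-fold, adjusted p = 2.18e-07), PKM (1.47 ± 0.0177, or 2.76-fold, adjusted p = 8.55e-09) and LDHA (1.23 ± 0.0244, or 2.34-fold, adjusted p = 7.28e-05). Lower were SLC2A3 (-1.51 ± 0.0900, adjusted p = 0.00406), MXI1 (-1.50 ± 0.112, adjusted p = 0.0208) and VEGFA (-1.47 ± 0.0599, adjusted p = 3.23e-04). BNIP3 (1.02) and ALDOA (0.99) followed without passing TREAT. By class, 12 of 16 enzymes were higher in set 2 and 1, HK2, was lower, against 3 higher and 4 lower of the 11 hypoxia response genes. Of the genes that fell in both sets, CA9, CA12 and ALDOC did not differ between them by a called amount (0.02, 0.35 and -0.13), and NDRG1 (-0.29) and BNIP3L (-0.30) were lower in set 2. Of the other mesenchymal markers, VIM was higher in set 2 (2520.0, 2467 and 2543 CPM against 1324, 1317 and 1321), as was CDH2 from near 0, and FN1 was lower (387, 393 and 327 CPM against 608, 682 and 799). Of the epithelial markers, EPCAM was higher in set 2 (0.41 on the log2 scale), CDH1 was lower (-2.65) and ESRP1 did not pass (-0.32). The proliferation genes TOP2A (0.90) and MKI67 (1.16) were higher in set 2. Their part in these differences was not tested. ZEB1 was as low in set 1 as in set 2, as given above.

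Cells with the vector and no gRNA differed widely from wild type in both lines, in these genes and in others. In MDA-MB-231, 13 of the 36 were higher in No gRNA (26.2% of all genes) and 8 lower (27.6%), and 6 passed TREAT (3.60%), so the moderated calls there were near the shares of all genes. In SUM159, 11 were higher (21.0%) and 12 lower (21.9%), and 2 passed TREAT (1.53%). Higher in both lines were 8 genes (9.29% of the 13775 genes tested in both), ALDOC, BNIP3L, CA12, CA9, MXI1, NDRG1, P4HA1 and SLC2A3, and lower in both were 6 (10.8%), all enzymes: ALDOA, GPI, LDHA, PGAM1, PKM and TPI1. MKI67 was lower in No gRNA in both lines (-0.97 in MDA-MB-231 and -0.54 in SUM159), and TOP2A was lower in MDA-MB-231 (-0.64) and higher in SUM159 (0.31). The mesenchymal FN1 had group means of 1389 CPM in No gRNA and 229 in wild type of MDA-MB-231, and of 2279.6 and 1573 in SUM159 (run 1). In the same order VIM was at 2387 and 2493 CPM and at 3832 and 3237 CPM, and CD14 at 4.70 and 1.18 CPM and at 1.20 and 0.151 CPM. Libraries of CDH2 overlapped in both lines. The part of these genes in the differences was not tested. Across the 36 genes the log2 fold changes of the lines had a Pearson r of 0.80 and a Spearman rho of 0.67, against 0.27 and 0.25 across the 13775 genes. Without CA9, which lies far from the others, they were 0.60 and 0.64 over 35 genes. This is a description across genes, which are not independent replicates, and the lines share the vector and the selection but no library.

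**Figure D3:**
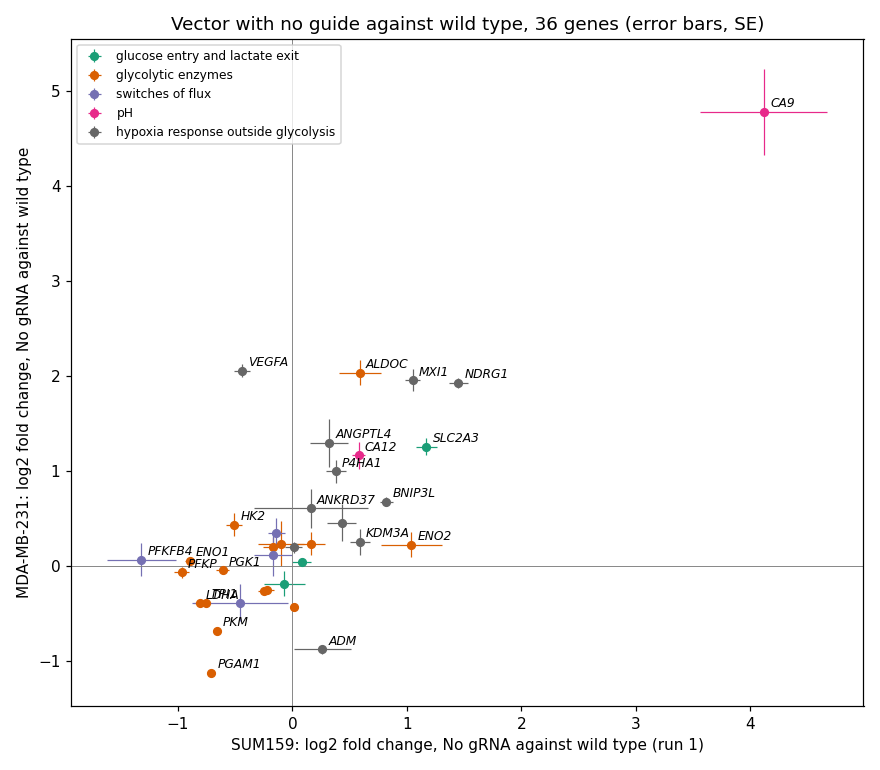
Log2 fold change between No gRNA and wild type in SUM159 (horizontal axis) and MDA-MB-231 (vertical axis) for the 36 genes, coloured by class, with standard errors as bars. CA9 lies at 4.12 and 4.78, 9 of the 11 hypoxia response genes lie in the upper right, 8 of the 16 enzymes in the lower left, and VEGFA was higher in MDA-MB-231 (2.06) and lower in SUM159 (-0.44).

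CA9 had the largest difference. In SUM159 wild type of run 1 it was at 0.219, 0.335 and 1.75 CPM, against the 8.49 to 9.95 CPM of No gRNA, a log2 fold change of 4.12 ± 0.556 (TREAT adjusted p = 0.00760). Replicate 3 of that wild type stood above the other two, and without replicate 1 or 2 the log2 fold change was 3.55 or 3.84 and the TREAT adjusted p 0.0592 or 0.0652. Without replicate 3 the log2 fold change was 4.96, and edgeR and DESeq2 gave 3.59 with all libraries. Wild type of run 2 had 0.0736, 0.828 and 0.0739 CPM. In MDA-MB-231 wild type only 6 estimated counts lay on CA9 in the 3 libraries together, against 208 in No gRNA, a ratio of 33.4 after scaling with an exact 95% interval of 15.1 to 92.1 that covers counting error only. The fitted log2 fold change of 4.78 depends on the small amount added to each count.

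NDRG1 was at 62.6, 54.3 and 56.7 CPM in MDA-MB-231 wild type and at 33.7, 39.9 and 40.9 CPM in SUM159 wild type of run 1. It was higher in No gRNA by 1.93 ± 0.0535 and 1.45 ± 0.0809 and passed TREAT in both lines (adjusted p = 4.03e-07 and 0.00777), although in SUM159 leaving out wild type replicate 1 gave a TREAT adjusted p of 0.0533. In MDA-MB-231 VEGFA (101, 96.0 and 106 CPM in wild type), MXI1 (11.5, 11.2 and 8.67 CPM) and ALDOC also passed, by 2.06, 1.96 and 2.04, and PGAM1 passed as lower (-1.12). The 11 hypoxia response genes as a class had 8 higher and 1 lower in MDA-MB-231 (26.2% and 27.6% of all genes) and 6 higher and 1 lower in SUM159 (21.0% and 21.9%), where VEGFA was the lower one. The lower one in MDA-MB-231 was ADM. These differences and those between the sets and No gRNA use the same No gRNA libraries, so a gene high in those 3 libraries appears higher in the former and lower in the latter.

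With wild type in place of No gRNA as the control, set 1 had 13 genes higher (29.6% of all genes) and 12 lower (29.8%), and set 2 had 18 higher (17.8%) and 3 lower (18.5%). TREAT then called 7 in set 1 (8.42%) and 1 in set 2 (1.44%). Against wild type, NDRG1 was higher in both sets (1.35 in set 1 and 1.07 in set 2), as were VEGFA (2.20 and 0.73) and CA9 (3.12 and 3.14, fitted on few wild type counts), and CA12 was lower in both (-1.46 and -1.11). ALDOC was within 0.28 of wild type in either set and passed in neither. In SUM159 the same change gave 12 higher and 9 lower with All gRNA (24.4% and 24.3% of all genes) and likewise 12 and 9 with gRNA 4 (23.2% and 23.6%), and TREAT called 3 with All gRNA (2.30%) and 3 with gRNA 4 (2.46%). PFKP, which rose against No gRNA, was lower than wild type by 0.62 and 0.60.

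Between the untreated lines (wild types of run 2), 12 of the 35 genes tested were higher in SUM159 (37.0% of all genes) and 17 lower (38.6%), and 10 passed TREAT (29.1%). These shares were near those of all genes, so the values that follow describe the members and do not set them apart. SUM159 had more CA12 (log2 difference 3.20), MXI1 (3.35), VEGFA (2.02), SLC2A3 (1.86) and PDK1 (1.66). MDA-MB-231 had more ADM, at 168, 156 and 159 CPM against 3.75, 4.27 and 5.30 in SUM159 (log2 difference -5.18), and more PDK3, SLC16A3, ENO1 and LDHA. CA9 was too low to be tested there. ENO1 and LDHA differed as much between the SUM159 runs (-1.46 and -1.27) as between the lines (-1.45 and -1.27).

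The responses to the ZEB1 gRNAs were compared between the lines as the mean of both sets against No gRNA, less the mean of gRNA 4 and All gRNA against No gRNA. By the moderated test 19 of the 36 differed (25.4% of 17182 genes), and 3 passed TREAT (0.954%). All 3 were lower in MDA-MB-231: CA12 (-2.70 ± 0.150, adjusted p = 2.11e-07), ALDOC (-1.89 ± 0.179, adjusted p = 0.00579) and NDRG1 (-1.32 ± 0.0672, adjusted p = 0.0101). The calls of ALDOC and NDRG1 depended on the libraries: without those numbered 1 or 2 ALDOC had adjusted p = 0.560 or 0.0953, and without those numbered 2 or 3 NDRG1 had 0.495 or 0.229 (limma). With wild type as the control neither passed (-0.38 and -0.77). ADM (1.13) and SLC2A1 (0.54) were among the 3 that differed in the other direction. LDHA (-0.08), PGAM1 (0.01) and GPI (0.02) did not differ by a called amount in this mean, in which the opposite values of set 1 and set 2 offset each other. Across the 36 genes, Pearson's r between the log2 fold changes of a SUM159 comparison and of a MDA-MB-231 comparison lay between -0.29 and 0.09 over the 4 pairs, which share no libraries across the lines.

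The HIF pathway itself was followed through a fixed list of 18 regulators, of which 17 were tested. With All gRNA 2 rose and 0 fell (5.93% and 4.89% of all genes), and with gRNA 4 3 rose and 0 fell (6.11% and 4.91%). In set 1, 2 rose and 4 fell (20.4% and 17.3%), and in set 2, 3 rose and 6 fell (27.3% and 25.1%). The counts in the sets were near the shares of all genes. EPAS1 (HIF-2α) was at 122, 157 and 129.6 CPM in MDA-MB-231 No gRNA, at 305, 288 and 284 in set 1 and at 157, 149.7 and 121 in set 2. It rose by 1.11 in set 1 and did not pass in set 2, and in SUM159 it rose by 0.41 with gRNA 4 and 0.39 with All gRNA. HIF1A was at 617, 646 and 641 CPM in No gRNA, at 653, 699 and 659.8 in set 1 and at 388, 355 and 375 in set 2. Set 2 was thus lower by 0.75 on the log2 scale and lay nearer to wild type (320.4, 309 and 305 CPM), and set 1 did not pass. Its partner ARNT and the hydroxylase EGLN2 passed in 0 of the 4 comparisons. VHL fell in both sets, by 0.43 and 0.29. EGLN1, the main oxygen sensor, fell by 0.43 in set 1 and rose by 0.29 in set 2, and HIF1AN fell by 0.52 in set 2. The coactivator binding protein CITED2 rose in SUM159 by 0.82 with gRNA 4 and 0.42 with All gRNA and fell in both sets, by 0.37 and 1.00. ARNT2 fell in set 1 by 1.15, SIAH1 in set 2 by 0.65 and CREBBP in set 2 by 0.58.

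A further list of 28 hypoxia-induced genes, of which 26 were tested in SUM159 and 27 in MDA-MB-231, gave 2 higher and 5 lower with All gRNA (5.93% and 4.89% of all genes) and 3 higher and 5 lower with gRNA 4 (6.11% and 4.91%). It gave 7 higher and 9 lower in set 1 (20.4% and 17.3%) and 9 higher and 10 lower in set 2 (27.3% and 25.1%). DDIT4, an inhibitor of mTOR, was at 357, 338 and 354 CPM in MDA-MB-231 No gRNA, at 234, 224 and 227 in set 1 and at 76.5, 76.3 and 80.9 in set 2. The fall in set 2, of 2.14 on the log2 scale, passed TREAT, and wild type cells had 44.3, 42.1 and 42.7 CPM. ERRFI1, a feedback inhibitor of EGFR, fell in set 2 by 2.09 and rose in SUM159 by 0.80 and 0.73. LOX, which crosslinks collagen, fell in all 4 comparisons, by between 0.57 and 1.19. The glycoprotein hormone STC2 fell in set 2 by 3.15, from under 10 CPM, and PPFIA4 there by 1.90. PPP1R3C fell in SUM159 by 1.32 with gRNA 4 and 1.00 with All gRNA.

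**Figure D4:**
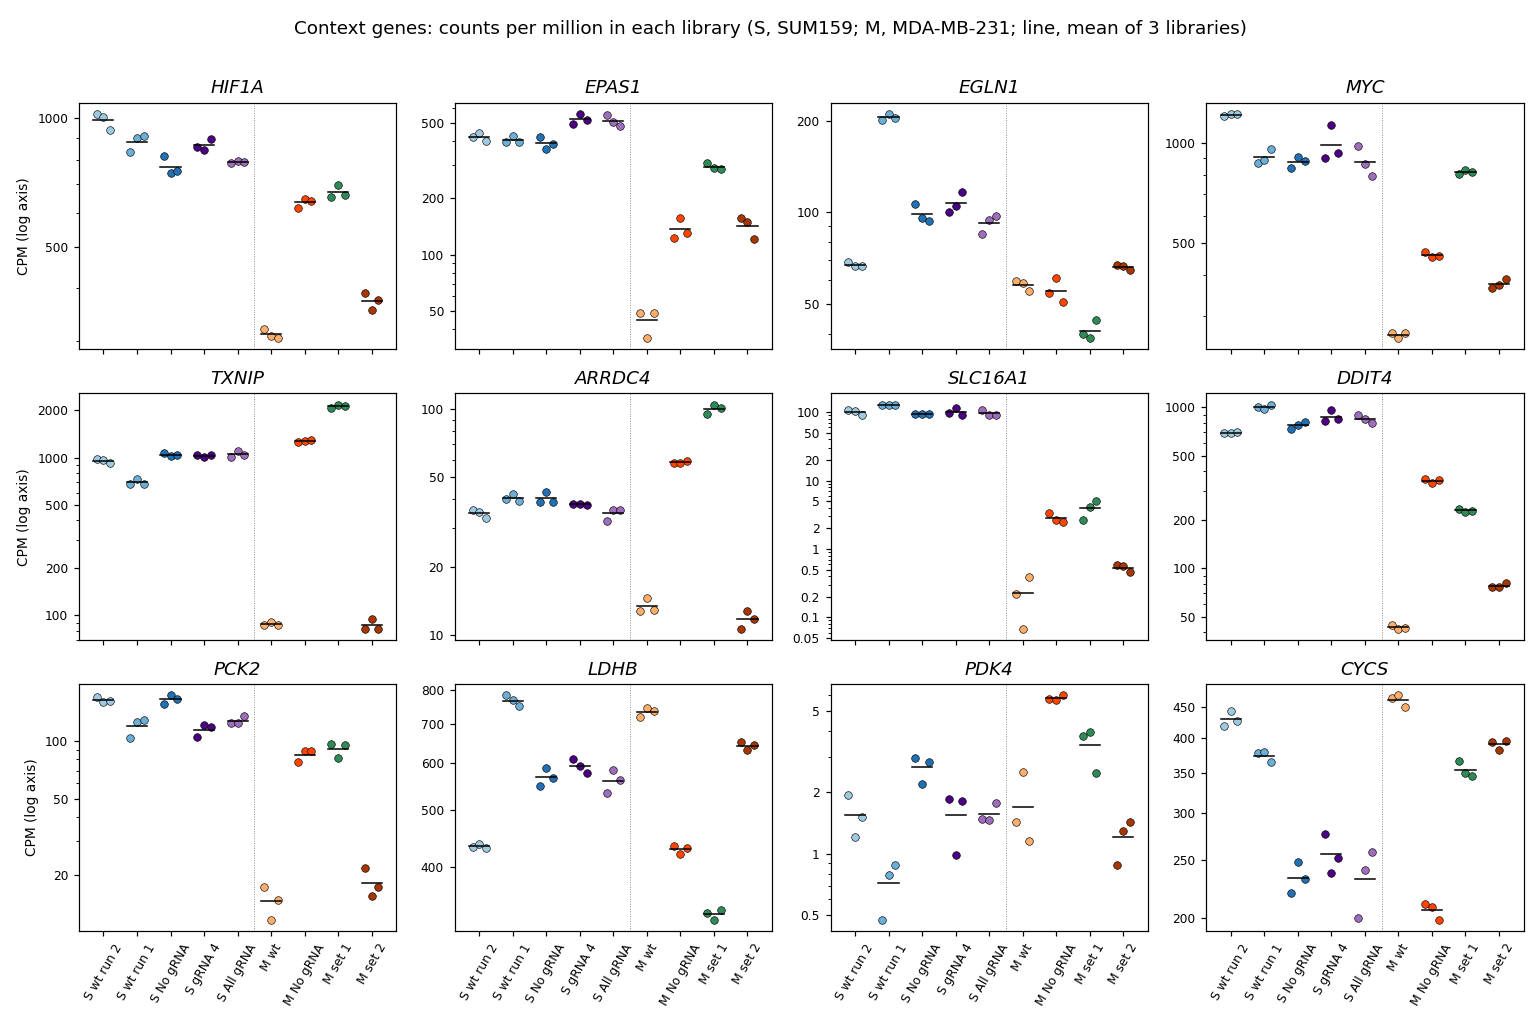
CPM (log axis) of 12 genes of the wider pathway in each of the 27 libraries (points) with group means (lines), S for SUM159, M for MDA-MB-231 and wt for wild type. TXNIP, ARRDC4, SLC16A1, DDIT4 and PCK2 were high in M No gRNA and M set 1 and lower in M wt and M set 2.

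Among regulators of glycolytic genes outside the HIF pathway, 4 of 16 were higher and 6 lower in set 2 than in set 1, near the shares of all genes (25.2% and 26.3%). TREAT called 4 (3.07% of all genes), all lower in set 2: TXNIP, ARRDC4, KLF4 and MYC. TXNIP, which restrains glucose uptake and is induced by glucose, was at 1261, 1284 and 1306 CPM in No gRNA, at 2083, 2176 and 2124 in set 1 and at 82.5, 94.3 and 82.2 in set 2. Set 2 overlapped wild type (86.9, 90.3 and 86.7 CPM). TXNIP rose by 0.73 in set 1, fell by 3.87 in set 2 and passed TREAT in the latter, and SUM159 did not pass in either comparison (-0.03 and 0.00). Its relative ARRDC4 followed, at 58.0, 58.0 and 59.0 CPM in No gRNA, 95.8, 105 and 101 in set 1 and 10.7, 12.8 and 11.8 in set 2. MYC, an activator of glycolytic genes, was at 469, 452 and 455 CPM in No gRNA, at 806, 828 and 819 in set 1 and at 364, 371 and 389 in set 2. It rose by 0.84 in set 1 and fell by 0.27 in set 2, opposite to most of the enzymes. KLF4 and MXD1 fell in set 2 by 1.25 and 1.48, and MLXIP rose there by 0.84. Of the 16 regulators tested, 5 rose and 3 fell in set 1 (20.4% and 17.3% of all genes), 3 rose and 6 fell in set 2 (27.3% and 25.1%), and 0 rose and 1 fell with All gRNA (5.93% and 4.89%) as with gRNA 4 (6.11% and 4.91%). These moderated counts were near the shares of all genes, while TREAT called 2 of the regulators in set 2 as lower (4.14% of all genes in either direction).

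Among 30 other isoenzymes and pyruvate genes, of which 24 were tested in MDA-MB-231, 8 rose and 9 fell in set 1 (20.4% and 17.3% of all genes) and 9 rose and 5 fell in set 2 (27.3% and 25.1%). LDHB, the lactate dehydrogenase of oxidative tissues, moved as LDHA did, from 434, 420.0 and 431 CPM in No gRNA to 333, 325 and 337 in set 1 and 652, 632 and 645 in set 2. The lactate importer SLC16A1 (MCT1) was at 3.35, 2.67 and 2.47 CPM in No gRNA, at 2.63, 4.13 and 5.02 in set 1 and at 0.579, 0.554 and 0.455 in set 2, a fall of 2.32 in set 2. In every SUM159 library it was above 80 CPM. HKDC1 rose in set 1 by 2.27 and passed TREAT, and PDK4 fell in both sets, by 0.78 and 2.24. PGAM5, a mitochondrial phosphatase, rose in set 2 by 1.32. PFKFB2 rose in both sets, by 1.09 and 0.89, and with All gRNA by 1.18, and SLC2A12 fell in both sets, by 1.25 and 1.21, and rose with gRNA 4 by 1.56. In SUM159, 1 of 22 tested rose in each comparison (5.93% of all genes with All gRNA and 6.11% with gRNA 4) and 0 fell.

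Genes of the reverse route and of the pentose phosphate branch were followed as well. PCK2, mitochondrial PEPCK, was at 77.4, 88.6 and 88.2 CPM in MDA-MB-231 No gRNA, at 96.4, 81.1 and 95.6 in set 1 and at 21.9, 15.6 and 17.4 in set 2 (a fall of 2.20, past TREAT). FBP1, the enzyme that opposes phosphofructokinase, was at 21.5, 18.5 and 20.6 CPM in No gRNA, at 16.5, 16.9 and 15.0 in set 1 and at 35.3, 32.8 and 36.6 in set 2, and was at or near 0 in SUM159. PC fell in both sets, by 0.94 and 0.63, and rose in SUM159 by 0.76 and 0.97. TKT fell by 0.53 in set 1 and rose by 0.18 in set 2, and G6PC3 rose by 0.24 and fell by 0.49. Of the 11 genes tested in MDA-MB-231, 2 rose and 4 fell in set 1 (20.4% and 17.3% of all genes) and 6 rose and 5 fell in set 2 (27.3% and 25.1%). Of the 10 in SUM159, 2 rose and 2 fell with All gRNA (5.93% and 4.89%) and 3 rose and 1 fell with gRNA 4 (6.11% and 4.91%).

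For oxidative metabolism, 31 of 33 citrate cycle and respiratory chain genes were tested. In set 2, 20 rose and 1 fell (27.3% and 25.1% of all genes), in set 1 5 rose and 10 fell (20.4% and 17.3%), with All gRNA 1 rose and 1 fell (5.93% and 4.89%), and with gRNA 4 4 rose and 0 fell (6.11% and 4.91%). NDUFA9, of complex I, was at 27.6, 27.8 and 30.0 CPM in No gRNA, at 20.8, 21.4 and 21.8 in set 1 and at 58.7, 50.6 and 54.5 in set 2 (log2 fold changes -0.41 and 0.96). CYCS, cytochrome c, rose in both sets, by 0.78 and 0.94. COX5A fell by 0.30 and rose by 0.78, SDHA and IDH3A rose in set 2 by 0.70 and 0.62, and PPARGC1A, a coactivator of mitochondrial genes, fell in set 2 by 2.48. Against wild type the No gRNA cells of MDA-MB-231 had 25 of these 31 lower (27.6% of all genes) and 2 higher (26.2%).

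Outside all of these lists, the 5 genes whose log2 CPM followed the median of the 11 hypoxia response genes most closely over the 9 group means were HSPB6 (Pearson r = 0.969), ZCWPW2 (0.940), NIPSNAP1 (0.938), CFB (0.930) and ERLIN2 (0.925). The median itself, centred on each gene's mean, was lowest in MDA-MB-231 wild type (-0.40) and highest in MDA-MB-231 No gRNA (0.34), with -0.04 in set 1 and -0.16 in set 2. In SUM159 it was at -0.25 in wild type of run 1, 0.15 in No gRNA, 0.22 in All gRNA, 0.20 in gRNA 4 and -0.08 in wild type of run 2. The correlation is a description over 9 points, chosen as the best of all genes.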

How the data were processed

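RNA was sequenced as single-end reads of 50 bases from 27 libraries. The authors deposited estimated counts per gene, made with Salmon and tximport (length-scaled TPM) on GRCh38. The Salmon version, the annotation and the strand setting are not given in the sources used here. All 27 columns were used, and 56347 of the 57165 identifiers matched the reference annotation. The levels in CPM and the limma fits used the unrounded expected counts. Counts were rounded to whole numbers only for the alternatives with edgeR and DESeq2 and for setting up the simulated data. Genes were kept by edgeR's filterByExpr (minimum count 10), scaled by TMM and fitted with voom and limma as in the study, with 12 libraries per line and 24 for the difference between the lines. The moderated test and TREAT (log2 fold change 1) were adjusted over all genes. The software was edgeR 4.0.16 and limma 3.58.1 under R 4.3.3, with DESeq2 1.42.0 for an alternative.

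The genes described and the gene lists were chosen with earlier results of these data known. Per main comparison, the 8 called genes with the largest log2 fold change, by size, among those whose libraries did not overlap are given in full. From each further list up to 6 genes are named, with some regulators named in advance, and a few that the rule selects are not reported here. Exact permutation of 3 libraries against 3 cannot go below p = 0.1, so single-gene calls rest on limma. No pair of replicates was alike within sampling noise, the smallest chi-square per degree of freedom being above 7. The fit was first checked on simulated data with known changes, in the layout of MDA-MB-231 set 1 against No gRNA only. Of changes of 1.5 on the log2 scale, the moderated test found 87.5% and TREAT 40.6%. Of changes of 3 they found 94% and 86%. A change beyond 1 can thus miss TREAT. Alternatives were other scalings, no filter, the replicate number as a block, edgeR, DESeq2, each library left out, smaller fits and wild type as the control. Intervals cover counting error only.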

Additional observations from a re-analysis of the deposited data

Results flagged for a closer look

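The response to the ZEB1 gRNAs differed between the lines, by TREAT on the difference itself, for CA12 (-2.70 on the log2 scale, MDA-MB-231 less SUM159), ALDOC (-1.89) and NDRG1 (-1.32). CA12 fell in all 6 MDA-MB-231 libraries with gRNAs and rose in all 6 of SUM159. CA12 kept the call under every alternative tried for it. ALDOC lost the call without the libraries numbered 1 (adjusted p = 0.560) or 2 (0.0953), and NDRG1 lost it without those numbered 2 (0.495) or 3 (0.229) and with set 1 alone (0.832). With wild type as the control, CA12 stood at -2.05 (adjusted p = 2.31e-04), and NDRG1 (-0.77) and ALDOC (-0.38) did not pass. Line, medium and run cannot be told apart in these differences.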

How the results depend on the processing

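Of 40 named values, 17 kept their direction and call under every alternative tried. With wild type in place of No gRNA, calls were 21 with All gRNA (24.4% of all genes higher and 24.3% lower), and TREAT calls were 3 with All gRNA (2.30%), 3 with gRNA 4 (2.46%), 7 in set 1 (8.42%) and 1 in set 2 (1.44%). The 8 named values between set 2 and set 1 have no control to replace. Of the other named values, 13 changed sign. In SUM159 these were HK2 (-0.07) and PFKP (-0.62) with All gRNA, and PFKP (-0.60), P4HA1 (0.05) and VEGFA (-0.16) with gRNA 4. In set 1 they were ALDOC (0.28), CA9 (3.12) and NDRG1 (1.35), and in set 2 ALDOC (0.16), MXI1 (0.28), CA9 (3.14), VEGFA (0.73) and PGAM1 (-0.03). The cause was not tested. Calls were lost, in the same direction, in 31 further cases. Of these, 20 came with 1 library left out, all in SUM159 and for SLC2A3, P4HA1, ANGPTL4 and VEGFA, as given above. In SUM159 those with wild type as the control were VEGFA with All gRNA (0.03), and HK2 (0.02) and ALDOA (0.06) with gRNA 4. In MDA-MB-231 they were KDM3A in set 1 (-0.37), and SLC2A3 (-0.04) and ADM (0.05) in set 2.

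Between All gRNA and gRNA 4, DESeq2 called 5 genes (2.32% of all genes) and a fit of these groups alone 0 (0.194%), from fewer samples. In set 2, edgeR's version of TREAT called 7 (5.90%), and the difference between the lines with set 2 alone gave 6 by TREAT (2.52%). Leaving out 1 library gave 8 to 12 calls for All gRNA (6.74% to 8.37% of all genes in the same fits), 9 to 12 for gRNA 4 (7.45% to 9.03%, with 9 without No gRNA replicate 2), 17 to 20 for set 1 (31.0% to 32.7%) and 24 to 27 for set 2 (46.0% to 47.7%). No gRNA against wild type then had 0 to 2 TREAT calls in SUM159 (0.946% to 1.16%, with 0 without wild type replicate 1 and 1 without replicate 2) and 5 to 6 in MDA-MB-231 (2.66% to 3.03%). All gRNA against gRNA 4 had 0 to 2 calls (0.380% to 0.547%), set 2 against set 1 had 21 to 26 (45.1% to 46.4%) and 5 to 6 by TREAT (2.25% to 2.51%), and, with all libraries of 1 replicate number left out at a time, the difference between the lines had 1 to 2 by TREAT (0.451% to 0.562%, with 1 without replicate 2).

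Replicate numbers do not pair the libraries: deviations of same-numbered libraries correlated between -0.065 and 0.045. With the number as a block, calls were 10 for All gRNA (9.42% of all genes) and 12 for gRNA 4 (9.57%), where P4HA1 and SLC2A3 missed the threshold (adjusted p = 0.0538 and 0.0541, limma). The other calls among the 40 named values held. For All gRNA these values do not include CA12, PGAM1 and GAPDH, among which the lower count must lie. Depth limits the genes at few counts, among them CA9 in wild type cells and PDK3 in SUM159.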
